A study of Mus musculus with 5 samples.

Results

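The genes described here are 8 genes of secreted acute phase proteins, *Saa1*, *Saa2*, *Saa3* and *Saa4* of the serum amyloid A family, *Lcn2* of lipocalin 2, *Hp* of haptoglobin, and *Orm1* and *Orm2* of the orosomucoids. They were taken by symbol from the 23903 gene symbols of the deposited table, with the transcript of the highest mean over the 5 libraries for each, and all 8 were found. They had been picked for an excess in L1CAM-negative over L1CAM-positive adrenal spheres, so that their values in that comparison are a description and carry no test. The excess was found in *Saa3*, *Lcn2* and *Hp*, was small and close to the detection floor in *Saa1*, *Saa2* and *Saa4*, and was not seen in *Orm1* and *Orm2*.

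Acute phase proteins are plasma proteins whose synthesis changes in infection and injury. The liver is their classical source, where interleukin-6 acting through STAT3, and interleukin-1 and TNF acting through NF-kappaB, switch on their genes together with factors of the C/EBP family and glucocorticoids. In the mouse, *Saa1* and *Saa2* encode the main liver forms of serum amyloid A and *Saa4* a constitutive form, whereas *Saa3* is known mainly from cells outside the liver, among them macrophages, adipocytes and fibroblasts. Lipocalin 2 binds siderophores, by which bacteria take up iron, haptoglobin binds free haemoglobin, and the orosomucoids are glycoproteins that carry small molecules.

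RNA was sequenced from 5 libraries of spheres grown from dissociated adrenals of newborn mice, 2 from L1CAM-positive cells, which had bound to dishes coated with an antibody against the adhesion molecule L1CAM, and 3 from the L1CAM-negative cells that were washed off. L1CAM-positive numbers 25 and 31 and L1CAM-negative numbers 25 and 31 came from a mix of P0 and P2 mice, and L1CAM-negative number 28 from P5 mice. The culture lasted 8 days for numbers 25 and 28 but 5 days for number 31, without any treatment, in serum-free medium with EGF and FGF. The labels name the strain C57/bl6, whereas the methods name OF-1 mice, and no genetic change is given in either. The labels call the L1CAM-positive cells chromaffin cells, and the L1CAM-negative cells, which are a mixture, non-adrenergic. Neither the labels nor the methods say whether numbers mark separate animals or cultures, so that the p-values below measure only the spread between these libraries. Age differs from the other L1CAM-negative libraries in number 28 alone, and culture period in number 31 alone, so that neither can be told apart from the library.

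The values are FPKM, sequenced fragments scaled to transcript length and library size, quantile normalized by the authors and given as log2. The lowest value of the scale is exactly 1, from which an offset of 2 was inferred, and FPKM below are linear values after this offset is removed. The number of reads per library is unknown, so that no counting error could be given. The gene of the sorting antigen, *L1cam*, was at log2 values of 5.65 and 5.41 (L1CAM-positive spheres) as against 2.46, 2.54 and 2.86 (L1CAM-negative spheres) (log2 difference, L1CAM-negative minus L1CAM-positive, -2.91, standard error 0.17, adjusted p = 0.00143 from limma). Of 7 chromaffin cell markers all were higher in L1CAM-positive spheres by the same test, and of 7 adrenal cortex markers all were higher in L1CAM-negative spheres. In bulk RNA, fewer cells of a type and less RNA per cell cannot be told apart.

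*Saa3* (NM_011315) had, on the deposited scale and with all libraries, the largest difference between the fractions among the members. The RefSeq gene lies on chromosome 7 of GRCm38.p6 from 46711998 to 46719615, a span that, like those given for the other members, covers all RefSeq transcripts of the gene, predicted ones included. In L1CAM-positive spheres it was at 3.17 FPKM in number 25 and 4.26 FPKM in number 31. Its level in the L1CAM-negative spheres was 150.2 FPKM in number 25, 400.4 FPKM in number 31 and 1513 FPKM in number 28. All L1CAM-negative libraries thus lay far above both L1CAM-positive ones, and they differed among themselves by up to 10.1-fold. On the log2 scale the means were 2.51 ± 0.20 (SD, n = 2) and 8.82 ± 1.66 (SD, n = 3), a difference of 6.31. Within number 25 the level was 47.4-fold, and within number 31 93.9-fold that of the L1CAM-positive spheres. Among the 17466 genes tested that are listed with an mRNA, this difference ranked 1, and in number 28 *Saa3* ranked 7 of these genes by its level.

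*Lcn2* (NM_008491, chromosome 2 from 32384637 to 32387739) had the next difference in rank among these genes on this scale. The order of *Saa3* and *Lcn2* was not stable, since with a pseudocount of 0.1 the difference of *Lcn2* was 7.80 and that of *Saa3* 6.90, and *Lcn2* was also ahead without L1CAM-positive number 31 (6.52 and 6.45) and without number 31 of the L1CAM-negative libraries (6.77 and 6.40). The L1CAM-positive spheres had 0.517 FPKM in number 25 and 1.61 FPKM in number 31. The L1CAM-negative spheres had 119.8 FPKM in number 25, 112.3 FPKM in number 31 and 890.0 FPKM in number 28, where it ranked 17 among the genes with an mRNA. The log2 means were 1.59 ± 0.37 (SD, n = 2) and 7.86 ± 1.69 (SD, n = 3), a difference of 6.26. Unlike *Saa3*, which was 2.67-fold higher in number 31 than in number 25 of the L1CAM-negative spheres, *Lcn2* was at nearly the same level in both, with a ratio of 0.937. Without replicates of either culture period this contrast between the genes carries no test. Per length, *Saa3* was at 1.25-fold, 3.57-fold and 1.70-fold the level of *Lcn2* in numbers 25, 31 and 28.

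*Hp* (NM_017370, chromosome 8 from 109575128 to 109579172) was read at a lower level than these genes. In L1CAM-positive spheres it was at 1.05 and 1.03 FPKM in numbers 25 and 31. Its levels in the L1CAM-negative spheres were 12.2, 10.2 and 64.5 FPKM in numbers 25, 31 and 28. The fractions did not overlap, and number 28 stood apart from numbers 25 and 31, which were close to each other. The log2 means were 1.60 ± 0.01 (SD, n = 2) and 4.50 ± 1.35 (SD, n = 3), a difference of 2.89, which ranked 32 among the 17466 genes with an mRNA. The level in L1CAM-negative spheres was 11.7-fold that of L1CAM-positive spheres in number 25 and 9.90-fold in number 31.

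**Figure D1:**
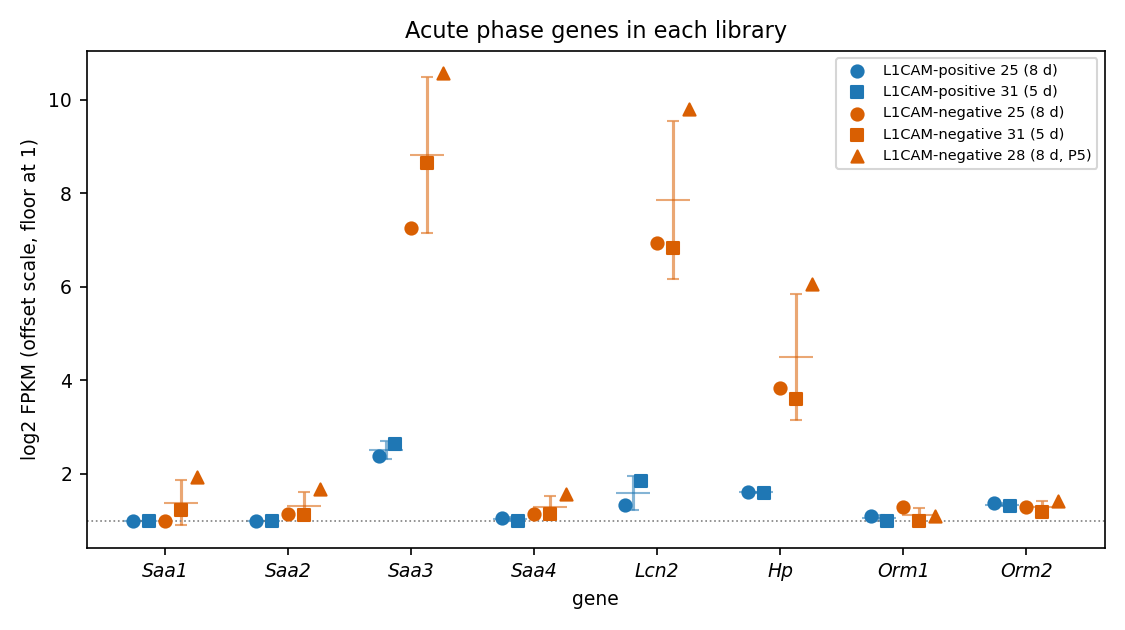
Log2 FPKM of the 8 acute phase genes (offset scale, floor at 1, dotted line) in each of the 5 libraries, with horizontal marks and bars for the mean and SD of each fraction (n = 2 and n = 3). *Saa3*, *Lcn2* and *Hp* lie above 3.5 in every L1CAM-negative library and below 3 in both L1CAM-positive libraries, number 28 (triangles) is the highest for 7 of the 8 genes, and the other 5 genes stay below 2.

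The other members of the serum amyloid A family stayed at or near the floor. *Saa1* (NM_009117, chromosome 7 from 46740497 to 46743181) was listed at 0 FPKM in both L1CAM-positive libraries and in L1CAM-negative number 25, and was at 0.336 FPKM in number 31 and 1.81 FPKM in number 28. *Saa2* (NM_011314, from 46751833 to 46754313) was listed at 0 FPKM in both L1CAM-positive libraries and was at 0.214, 0.174 and 1.17 FPKM in L1CAM-negative numbers 25, 31 and 28. *Saa4* (NM_011316, from 46727992 to 46732603) was at 0.0888 and 0 FPKM in L1CAM-positive numbers 25 and 31 and at 0.204, 0.198 and 0.977 FPKM in L1CAM-negative numbers 25, 31 and 28. Each of these genes was thus highest in number 28, and *Saa2* and *Saa4* did not overlap between the fractions, while *Saa1* did. Their log2 differences were 0.38, 0.31 and 0.25, which are compressed by the offset of the scale. The transcripts of *Saa1* and *Saa2* matched at 94.4% of 606 aligned bases, and 13.2% of the 50-base windows of *Saa1* were also found in *Saa2*, so that reads can be assigned to either gene. Summed over both, the level was 0 FPKM in L1CAM-positive spheres and 0.214, 0.510 and 2.98 FPKM in L1CAM-negative numbers 25, 31 and 28. *Saa3* shared 9 such windows with *Saa1* and 0 with *Saa2* and *Saa4*. A level of *Saa3* of 1513 FPKM beside 1.81 FPKM of *Saa1* in the same library shows that nearly all of the serum amyloid A signal was *Saa3*.

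The orosomucoid genes were under 1 FPKM in every library. *Orm1* (NM_008768, chromosome 4 from 63344556 to 63348163) was at 0.131 and 0 FPKM in L1CAM-positive numbers 25 and 31 and at 0.430, 0 and 0.151 FPKM in L1CAM-negative numbers 25, 31 and 28. *Orm2* (NM_011016, from 63362449 to 63365877) was at 0.588 and 0.487 FPKM against 0.454, 0.254 and 0.672 FPKM. The fractions overlapped for both genes, and their log2 differences were 0.08 and -0.05. The sign of the difference of *Orm2* was not stable, with values from -0.25 to 0.01 over the alternative settings, and above 0 only without number 31 of the L1CAM-negative libraries. The transcripts of this pair matched at 91.0% of 775 aligned bases. Their sum was at 0.719 and 0.487 FPKM in L1CAM-positive spheres, and at 0.884, 0.254 and 0.823 FPKM in L1CAM-negative spheres.

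Of the 8 members, 5 had every L1CAM-negative library above every L1CAM-positive library, an order found in 31.8% of the 19549 genes tested, and in all 5 of them number 28 was the highest of the L1CAM-negative libraries, as in 43.6% of the genes with this order. As the members were picked on this comparison, the first count says nothing further about them, nor do the median and the count in the next sentence. Their median log2 difference was 0.35, against 0.02 over all genes tested, and 3 of the 8 differed by at least 2, as did 1.54% of all genes tested. At a level of 1 FPKM, 3 members were read in at least 2 libraries and 3 in none. The sum of the 8 members was 5.54 and 7.39 FPKM in L1CAM-positive numbers 25 and 31 and 283.6, 523.8 and 2473 FPKM in L1CAM-negative numbers 25, 31 and 28. *Saa3* held between 53.0% and 76.4% of this sum in every library, and *Lcn2* between 21.4% and 42.3% in the L1CAM-negative libraries.

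**Figure D2:**
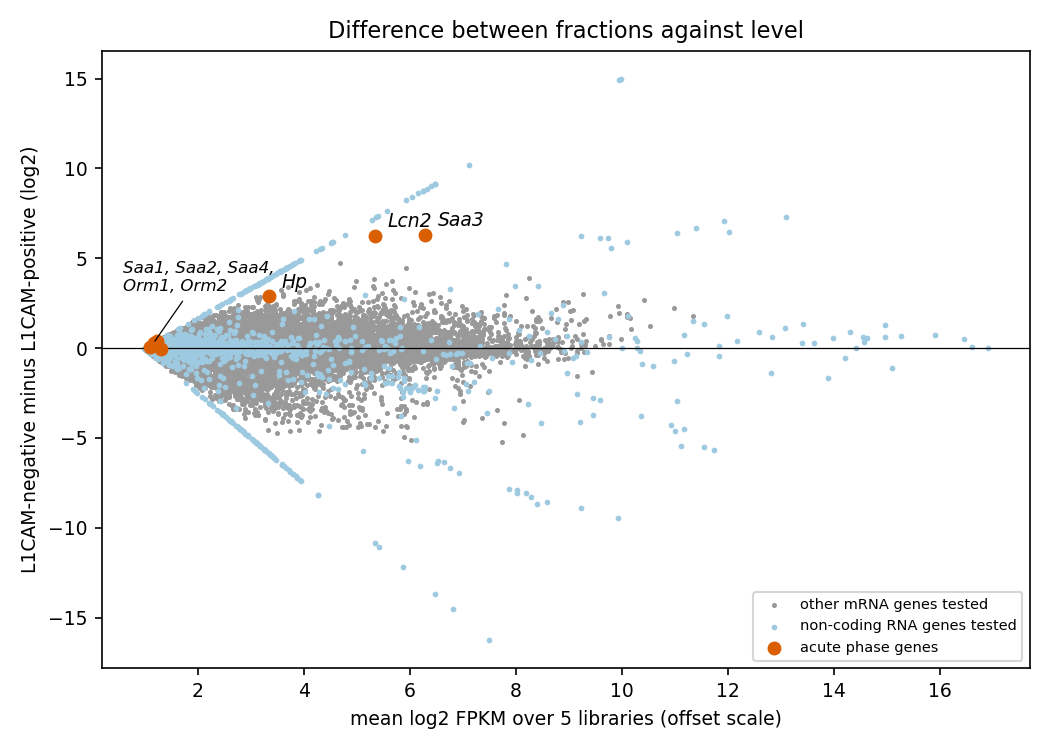
Difference of the mean log2 values, L1CAM-negative minus L1CAM-positive, against the mean log2 FPKM over 5 libraries, for the 19549 genes tested, with the 8 acute phase genes in orange. *Saa3* (6.31) and *Lcn2* (6.26) lie above all other genes with an mRNA (grey), *Hp* (2.89) at the upper edge, and the other 5 members at the lower end of the scale near 0. The points in light blue are non-coding RNAs, among them short ones that are at the floor in some libraries only.

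The levels of the members that remained in L1CAM-positive spheres were set against those of cell type markers, since the fractions are not pure. *Saa3* in L1CAM-positive spheres was at 2.11% of its level in L1CAM-negative spheres in number 25 and at 1.07% in number 31. *Lcn2* was at 0.431% and 1.44%, and *Hp* at 8.56% and 10.1%. The summed FPKM of 7 adrenal cortex markers in L1CAM-positive spheres were 13.9% and 20.3% of those in L1CAM-negative spheres, and those of 8 fibroblast and capsule markers 17.4% and 22.4%. For 7 endothelial markers the values were 18.5% and 18.6%, and for 9 macrophage markers 13.1% and 7.84%. Most of the endothelial sum came from *Emcn*, at 32.8 and 32.1 FPKM in L1CAM-positive and 145.2 and 154.0 FPKM in L1CAM-negative numbers 25 and 31. Single markers differed from these sums, as *Cd34* of endothelium, at 0.0312 FPKM in L1CAM-positive and 8.47 FPKM in L1CAM-negative number 25. In number 31 *Cd34* was at 0.936 and 8.09 FPKM. Since the members were picked for their low level in L1CAM-positive spheres, their lower percentages are a description, and the part of other cells in these levels was not tested.

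Among the L1CAM-negative libraries, number 28 had the highest levels of these genes. *Saa3* was 10.1-fold and 3.78-fold higher there than in numbers 25 and 31, *Lcn2* 7.43-fold and 7.93-fold, and *Hp* 5.27-fold and 6.33-fold. All 3 were higher by at least 2 on the log2 scale in number 28 than in number 25, as were 0.65% of the genes tested. Number 28 was the highest of the 5 libraries for 7 of 8 members, against 25% of the genes tested. Only *Orm1*, highest in number 25 of the L1CAM-negative spheres, was an exception. Number 28 is one of the libraries whose values chose the members, so that nothing is read from these shares, nor from the 43.6% given above. This is a comparison of single libraries with no replicate, and age, culture and library cannot be told apart in it. The summed markers of cell types also differed between these libraries, some downward and some upward. In number 28, chromaffin markers were at 0.194-fold, adrenal cortex markers were at 0.601-fold, fibroblast and capsule markers at 0.680-fold and macrophage markers at 0.679-fold the level of number 25. Adipocyte markers were at 1.67-fold, glial markers at 1.74-fold, endothelial markers at 1.91-fold and neutrophil markers at 2.67-fold. Most of the adipocyte, endothelial and neutrophil sums in number 28 came from a single gene each. *Fabp4* was at 100.1 and 192.8 FPKM in numbers 25 and 28, *Emcn* at 145.2 and 313.2 and *Camp* at 1.91 and 9.32. Other markers of these lists went down, as *Plin1* (22.2 to 9.35 FPKM) and *Cdh5* (21.1 to 15.1 FPKM), or up, as *Plvap* (16.9 to 26.7 FPKM). The glial sums were low, at 5.18 and 9.02 FPKM, and *S100b* went down (2.68 to 0.565 FPKM) while the other glial markers went up. Of the cortex markers, *Cyp11b1* (1102 to 1308 FPKM) and *Mc2r* (215.3 to 269.5 FPKM) went up and the others down. In number 31, macrophage markers were at 2.35-fold the level of number 25, where *Saa3* was 2.67-fold and *Lcn2* 0.937-fold. The part of these cell types in the levels of the members was not tested.

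**Figure D3:**
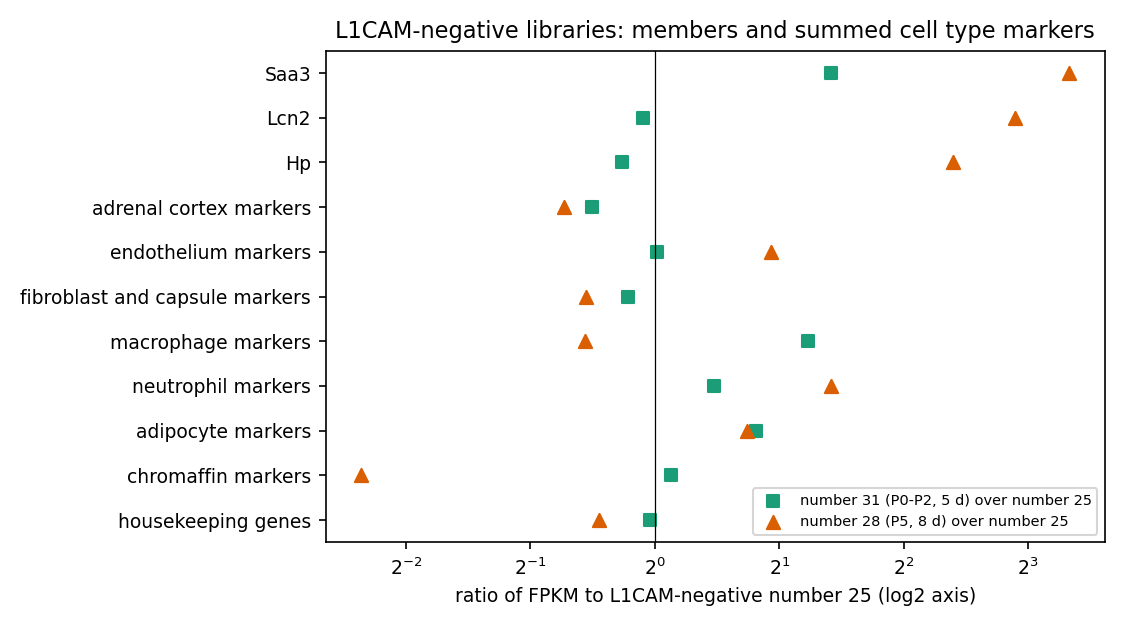
Ratio of FPKM in L1CAM-negative number 31 (squares) and number 28 (triangles) to L1CAM-negative number 25 on a log2 axis, for *Saa3*, *Lcn2* and *Hp* and for summed markers, 1 library each. The markers are those of adrenal cortex, endothelium, fibroblast and capsule, macrophage, neutrophil, adipocyte and chromaffin cells, and the summed housekeeping genes are also shown. In number 28 the 3 genes lie at 10.1-fold, 7.43-fold and 5.27-fold, further right than the markers of every cell type shown, of which neutrophil markers (2.67-fold) and endothelial markers (1.91-fold) come next.

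Cells known to make these proteins elsewhere were looked for by their markers. Fibroblast and capsule markers summed to 1361 and 1501 FPKM in L1CAM-positive spheres, and to 7804, 6711 and 5307 FPKM in L1CAM-negative numbers 25, 31 and 28. Of these 8 markers, 7 were higher in L1CAM-negative spheres. Of 7 hepatocyte markers, all were under 1 FPKM in all libraries, with a summed level between 0.154 and 0.979 FPKM, and albumin mRNA was at 0.127 FPKM at most. Of 8 neutrophil markers in the table, 5 were under 1 FPKM in all libraries. Their sum was 1.55 and 1.29 FPKM in L1CAM-positive spheres, and 5.31, 7.38 and 14.2 FPKM in L1CAM-negative numbers 25, 31 and 28, and 1 of them, *S100a8*, was higher in L1CAM-negative spheres. *Elane*, which encodes the elastase of neutrophil granules, was listed at 0 in every library. Of 7 adipocyte markers, 4 were under 1 FPKM in all libraries, among them *Adipoq* of adiponectin, and *Lep* of leptin was listed at 0. *Plin1* and *Fabp4*, which are also expressed in cortex and endothelium, were the 2 that were higher in L1CAM-negative spheres. Macrophage markers summed to 23.5 and 33.2 FPKM in L1CAM-positive spheres, and to 179.8, 423.1 and 122.1 FPKM in L1CAM-negative numbers 25, 31 and 28, of which *Lyz2* of lysozyme gave the most, and 2 of 9 were higher in L1CAM-negative spheres. In L1CAM-negative numbers 25, 31 and 28, *Adgre1* of the antigen F4/80 was at 7.27, 12.7 and 4.52 FPKM, and *Csf1r* of the receptor for the growth factor of macrophages at 4.59, 13.0 and 4.12 FPKM. The complement genes *C1qa* and *C1qb* were at 9.21, 22.0 and 3.30 FPKM and at 11.9, 28.2 and 6.66 FPKM. Of the 9 markers, 1 was under 1 FPKM in every library, *Cd163*, a scavenger receptor of some macrophages. *Saa3* and *Lcn2* were highest in number 28 and the macrophage sum in number 31, where *Saa3* was also above its level in number 25 and *Lcn2* was not. These are single libraries, and the part of these cell types in the levels of the members was not tested.

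The bases before the start of the members were compared within the family. The RefSeq table of GRCm38.p6 holds a promoter for 6 of the 8 members, *Hp* and *Orm1* being the ones without. The start is the one of the promoter table, which for *Saa3* (46715676) and *Saa1* (46742980) lies 3939 and 201 bases inside the gene span given above, and for the other 4 at its edge. In the 250 bases before this start, the motifs TTNNGNAA of C/EBP factors, TTCNNNGAA of STAT factors and the consensus of NF-kappaB were searched on both strands, and TATAAA on the sense strand. At least 1 match is found in 36.8%, 7.02%, 3.90% and 7.59% of 32851 promoters of this length. *Saa3* (chr7:46715677-46715926, minus strand) held 4 matches to the C/EBP motif and *Lcn2* (chr2:32387740-32387989, minus strand) held 1. *Saa1* (chr7:46742981-46743230, minus strand) held 2 and *Saa2* (chr7:46751583-46751832, plus strand) held 1, and *Orm2* (chr4:63362199-63362448, plus strand), with no excess in either fraction, held 2. *Saa4* held 2. No match to the STAT or NF-kappaB motifs was found in these 6 windows, and TATAAA was found in *Orm2*. Between *Saa1* and *Saa2*, 95.6% of 249 aligned bases were the same. The sequences of the 2 genes with the largest difference, of the near-identical pair at the floor and of *Orm2* are shown 5′ to 3′ with matches in capitals, which do not overlap each other. A match is a string of letters and no evidence of binding.
Saa3: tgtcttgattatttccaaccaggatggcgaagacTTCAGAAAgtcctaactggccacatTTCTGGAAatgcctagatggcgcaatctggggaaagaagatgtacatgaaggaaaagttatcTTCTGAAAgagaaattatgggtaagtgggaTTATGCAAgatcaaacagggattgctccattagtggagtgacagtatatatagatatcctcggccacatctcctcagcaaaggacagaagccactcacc
Lcn2: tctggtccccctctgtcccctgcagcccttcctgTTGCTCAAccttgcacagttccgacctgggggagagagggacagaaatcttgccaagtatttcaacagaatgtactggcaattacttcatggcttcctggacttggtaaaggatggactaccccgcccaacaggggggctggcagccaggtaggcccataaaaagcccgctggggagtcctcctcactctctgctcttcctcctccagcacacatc
Saa1: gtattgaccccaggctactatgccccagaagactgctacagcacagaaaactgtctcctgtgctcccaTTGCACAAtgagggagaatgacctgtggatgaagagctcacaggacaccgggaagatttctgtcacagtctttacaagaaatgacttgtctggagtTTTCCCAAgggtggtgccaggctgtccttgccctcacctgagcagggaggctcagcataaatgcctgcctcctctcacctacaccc
Saa2: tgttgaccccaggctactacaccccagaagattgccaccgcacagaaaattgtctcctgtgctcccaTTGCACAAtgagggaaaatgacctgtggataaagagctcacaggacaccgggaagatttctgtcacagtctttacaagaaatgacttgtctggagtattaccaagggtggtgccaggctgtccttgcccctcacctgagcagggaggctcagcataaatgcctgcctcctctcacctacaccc
Orm2: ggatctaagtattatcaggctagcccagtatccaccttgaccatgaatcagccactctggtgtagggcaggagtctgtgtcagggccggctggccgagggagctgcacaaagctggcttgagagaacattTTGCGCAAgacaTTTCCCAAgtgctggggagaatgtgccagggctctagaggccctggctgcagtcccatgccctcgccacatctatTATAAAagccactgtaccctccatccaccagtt

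The other genes of the acute phase response were described from 6 lists with 120 genes, of which 114 were tested. The lists were written with earlier results of these data known, so that their shares, here and below, are a description. By limma, with a threshold of 0.05 on the adjusted p, 40 of them were higher in L1CAM-negative spheres (35.1%, against 15.1% of all genes tested) and 7 in L1CAM-positive spheres (6.14%, against 15.9% of all genes tested), and 67 did not pass. Their median log2 difference was 0.65. The shares over all genes tested include many genes near the floor. Among genes with 1 FPKM in at least 2 libraries, 41 of 85 listed genes were higher in L1CAM-negative spheres and 6 in L1CAM-positive spheres. Of all 14091 genes at this level, 3153 and 2994 were. The counts rest on the L1CAM-positive libraries, of which there are 2. Without number 25 of them 9 genes were higher in L1CAM-negative spheres, and without number 31 of them 13. Of the genes named below, *Trf*, *Osmr*, *Hsd11b2* and *Tfrc* also lost their call with no filter and with days in culture as a term, *Cdkn1c* with no filter and *Hsd11b2* with a pseudocount of 0.1.

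**Figure D4:**
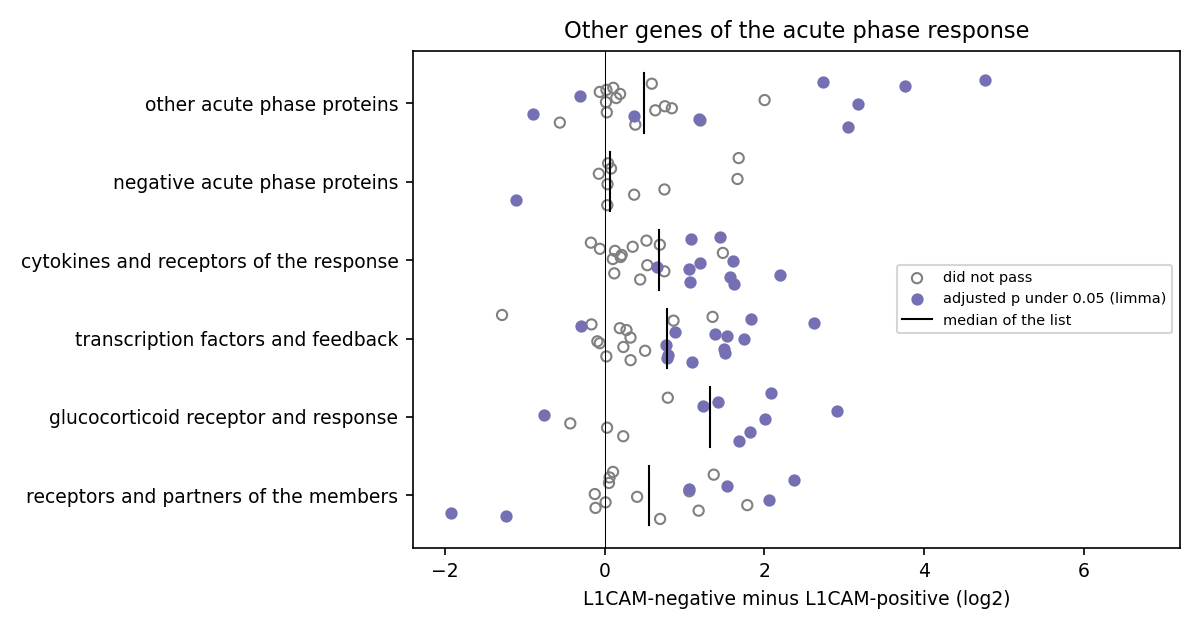
Log2 difference, L1CAM-negative minus L1CAM-positive, of the 114 tested genes in 6 lists of the acute phase response outside the members, 1 point per gene, filled where the adjusted p from limma was under 0.05, with the median of each list as a line. Medians range from 0.06 (negative acute phase proteins) to 1.32 (glucocorticoid receptor and response), and *C3* (4.76) is the rightmost point.

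Of 24 other acute phase proteins tested, 7 were higher in L1CAM-negative spheres and 2 in L1CAM-positive spheres. These are 29.2% and 8.33%, against 15.1% and 15.9% of all genes tested. The complement gene *C3* was at log2 values of 1.72 and 1.94 in L1CAM-positive spheres, and 6.57, 6.72 and 6.48 in L1CAM-negative numbers 25, 31 and 28. Its difference was 4.76 (standard error 0.11, adjusted p = 0.000813 from limma), and number 28 was the lowest of the L1CAM-negative libraries here. *Cp* of ceruloplasmin, a copper protein of plasma, was at 2.77 and 2.68 against 6.03, 6.01 and 7.42, a difference of 3.76 (standard error 0.49, adjusted p = 0.00697). *Lbp*, whose product binds bacterial lipopolysaccharide, was at 2.30 and 2.87 against 5.14, 5.71 and 6.42, a difference of 3.17 (standard error 0.42, adjusted p = 0.00734). Both *Cp* and *Lbp* were thus highest in number 28, as were 15 of the 24 genes (62.5%, against 25% of all genes tested). Named after their values were seen, *Steap4*, a metalloreductase, differed by 3.05 and *Cd14*, a co-receptor for lipopolysaccharide, by 2.73, and both passed the test. *Pglyrp1* of a peptidoglycan recognition protein was higher in L1CAM-positive spheres (difference -0.90, adjusted p = 0.00341 from limma), as was *Hamp* of the iron hormone hepcidin (difference -0.31, adjusted p = 0.00889), which was close to the floor. The metallothionein genes *Mt1* and *Mt2* had the highest means of the list and did not pass the test, with differences of 0.84 and 0.63, and *Mt2* was at -0.24 without number 28. Without L1CAM-positive number 25 or 31, 2 genes of this list were called higher in L1CAM-negative spheres, and *Cp* and *Lbp* did not pass without either (highest adjusted p = 0.0810 and 0.0855 from limma). *C3*, *Pglyrp1* and *Hamp* passed in every alternative in which they were tested.

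Several proteins that the liver makes in the acute phase were near the floor in both fractions. The fibrinogen genes *Fga*, *Fgb* and *Fgg*, *Crp* of C-reactive protein, *Hpx* of hemopexin and *Itih4*, named after their values were seen, were at log2 values of 1.59 or less in every library. Of 10 genes of proteins that fall in plasma during the acute phase, limma called 0 higher in L1CAM-negative spheres (2 at an unadjusted p under 0.05). The share over all genes tested was 15.1%. In L1CAM-positive spheres 1 was higher (10%, against 15.9% of all genes tested). This was *Trf* of transferrin, at 7.23 and 7.24 against 5.77, 6.14 and 6.47, a difference of -1.11 (standard error 0.22, adjusted p = 0.0211). Its call was lost when either L1CAM-positive library or L1CAM-negative number 31 was left out (highest adjusted p = 0.146 from limma). *Fetub* of fetuin B was at 1.22 and 2.42 against 2.55, 3.00 and 4.89 and did not pass the test (difference 1.66, adjusted p = 0.207 from limma).

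Of 24 cytokines and receptors that act on acute phase genes, limma called 10 higher in L1CAM-negative spheres and 0 higher in L1CAM-positive spheres (0 also at an unadjusted p under 0.05). These are 41.7% and 0%, against 15.1% and 15.9% of all genes tested. *Osmr*, the receptor of oncostatin M, was at 2.63 and 2.75 against 4.41, 4.57 and 5.68, a difference of 2.196 (standard error 0.42, adjusted p = 0.0205). *Tnfrsf1b*, a TNF receptor, was at 1.75 and 2.001 against 3.29, 3.51 and 3.69, a difference of 1.62 (standard error 0.17, adjusted p = 0.00395). *Il6ra*, the receptor subunit that binds interleukin-6, was at 1.38 and 1.497 against 2.85, 2.97 and 3.33, a difference of 1.61 (standard error 0.18, adjusted p = 0.00449). These receptors did not overlap between the fractions. The signalling subunit *Il6st* (gp130) differed by 1.20 and the TNF receptor *Tnfrsf1a* by 1.07, and these had the highest means of the list. Several cytokines were near the floor. Named after their values were seen, *Il6*, *Il1a*, *Il1b*, *Tnf* and *Osm* were at log2 values of 1.70 or less in every library and did not pass the test. Of the cytokines of the interleukin-6 family, also named after their values were seen, *Clcf1* (difference 1.45) and *Ctf1* (difference 1.08) were higher in L1CAM-negative spheres. *Clcf1* was at 4.28 and 4.95 FPKM against 15.5, 13.3 and 19.7 FPKM, and *Ctf1* was at 2.37 and 3.41 FPKM against 7.37, 7.26 and 10.5 FPKM. Number 28 was the highest of all libraries for 17 of the 24 genes (70.8%, against 25% of all genes tested). The count of 10 fell to 1 without L1CAM-positive number 25, 2 without L1CAM-positive number 31, and to 7 with number 31 of the L1CAM-negative libraries left out. *Tnfrsf1a* passed in all 17 alternatives, whereas *Osmr*, *Il6ra* and *Il6st* did not pass without either L1CAM-positive library and *Tnfrsf1b* did not pass without number 25 of them (highest adjusted p = 0.152, 0.0614, 0.0696 and 0.0511 from limma). *Osmr* did not pass without L1CAM-negative number 31 either.

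Of 26 transcription factors and feedback genes, 12 were higher in L1CAM-negative spheres and 1 in L1CAM-positive spheres. These are 46.2% and 3.85%, against 15.1% and 15.9% of all genes tested. *Cebpd*, a C/EBP factor induced in the acute phase, was at 2.32 and 3.14 against 4.97, 5.17 and 5.93, a difference of 2.62 (standard error 0.39, adjusted p = 0.0102 from limma). *Cebpa* was at 1.98 and 2.68 against 3.99, 4.40 and 4.11, a difference of 1.84 (standard error 0.26, adjusted p = 0.00843). *Nfkbiz* of the nuclear cofactor IkappaB-zeta, which in the mouse is needed for the induction of *Lcn2*, was at 2.89 and 2.70 against 4.10, 4.60 and 4.91, a difference of 1.74 (standard error 0.26, adjusted p = 0.0104). *Cebpb*, the most abundant of the list, was highest in number 28 at 7.69 but did not pass the test (difference 0.86, adjusted p = 0.160). Named after their values were seen, *Nfkbia* (difference 1.53) and *Socs3* (difference 1.51), feedback inhibitors of NF-kappaB and of STAT3, were higher in L1CAM-negative spheres, while *Stat3* differed by 0.02 and did not pass. *Jak1* differed by 0.19 and did not pass either. The count of 12 fell to 3 and 5 without number 25 and number 31 of the L1CAM-positive libraries, and to 8 and 7 without the same numbers of the L1CAM-negative libraries. *Cebpd* and *Nfkbiz* did not pass without either L1CAM-positive library, *Nfkbiz* not without L1CAM-negative number 31, and *Cebpa* not without L1CAM-positive number 25 (highest adjusted p = 0.0901, 0.101 and 0.0521 from limma).

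Glucocorticoids, which the adrenal cortex makes, enhance the acute phase response in the liver. Of 12 genes of the receptor, of the enzymes that activate and inactivate the hormone and of genes known to respond to it, 7 were higher in L1CAM-negative spheres and 1 in L1CAM-positive spheres. These are 58.3% and 8.33%, against 15.1% and 15.9% of all genes tested. *Hsd11b1*, whose product regenerates active hormone, was at 1.94 and 1.79 against 4.71, 4.32 and 5.28, a difference of 2.90 (standard error 0.30, adjusted p = 0.00401 from limma). *Hsd11b2*, whose product inactivates it, was at 2.31 and 2.11 against 1.69, 1.46 and 1.19, a difference of -0.76 (standard error 0.17, adjusted p = 0.0318). *Klf9* differed by 2.003 (standard error 0.15, adjusted p = 0.00214) and *Cdkn1c*, an inhibitor of the cell cycle, by 2.08 (standard error 0.47, adjusted p = 0.0315). *Dusp1* differed by 0.79 and did not pass. Number 28 was the highest of all libraries for 4 of these 12 genes (33.3%, against 25% of all genes tested). The count of 7 fell to 1 without L1CAM-positive number 25 or 31, and of the genes named *Klf9* passed in every alternative. *Hsd11b1*, *Hsd11b2* and *Cdkn1c* did not pass without either L1CAM-positive library, nor *Hsd11b2* and *Cdkn1c* without L1CAM-negative number 31, nor *Cdkn1c* without L1CAM-negative number 25 (highest adjusted p = 0.0572, 0.194 and 0.201 from limma). Adrenal cortex markers were likewise higher in L1CAM-negative spheres. For 7 of 7 markers summed they were at 1783 and 1845 FPKM in L1CAM-positive spheres, and 12859, 9065 and 7731 FPKM in L1CAM-negative numbers 25, 31 and 28. Of the L1CAM-negative libraries, number 28 had the lowest cortex sum and the lowest *Cdkn1c* but the highest *Hsd11b1*. Of the cortex markers, 2 were highest in number 28 and thus ran against the sum. In L1CAM-negative numbers 25, 31 and 28, *Cyp11b1* was at 1102, 497.0 and 1308 FPKM, and *Mc2r* at 215.3, 183.1 and 269.5 FPKM. The part of cortex cells in this list was not tested.

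Of 18 receptors and partners of the members, 4 were higher in L1CAM-negative spheres and 2 in L1CAM-positive spheres. These shares of 22.2% and 11.1% are near the 15.1% and 15.9% of all genes tested. *Cd36*, a scavenger receptor that binds serum amyloid A, was at 1.96 and 1.74 against 3.53, 4.28 and 4.84, a difference of 2.37 (standard error 0.41, adjusted p = 0.0149 from limma). *Lrp1*, which takes up complexes of haem carried by hemopexin, was at 4.82 and 4.98 against 6.77, 6.76 and 7.34, a difference of 2.06 (standard error 0.21, adjusted p = 0.00394). The formyl peptide receptor *Fpr1* differed by 1.53 (standard error 0.14, adjusted p = 0.00307), and its relative *Fpr2*, a receptor of serum amyloid A named after its values were seen, by 1.06. *Slc22a17*, which encodes a receptor for lipocalin 2, ran the other way from its ligand. It was at 7.13 and 6.87 in L1CAM-positive spheres, and at 5.16, 5.35 and 4.72 in L1CAM-negative numbers 25, 31 and 28, a difference of -1.92 (standard error 0.21, adjusted p = 0.00472 from limma). The transferrin receptor *Tfrc* was at 5.89 and 5.39 against 4.73, 4.53 and 3.95, a difference of -1.23 (standard error 0.29, adjusted p = 0.0354). *Lrp2*, another receptor of lipocalin 2 named after its values were seen, was near the floor, with log2 values of 1.04 or less in every library. *Fth1* of ferritin and *Apoe* had the highest means and did not pass the test (differences of 1.06 and 1.37). *Cd36*, *Lrp1*, *Slc22a17* and *Tfrc* did not pass without either L1CAM-positive library, *Cd36* and *Tfrc* not without L1CAM-negative number 31 and *Tfrc* not without L1CAM-negative number 25 (highest adjusted p = 0.124, 0.0606, 0.0655 and 0.213 from limma), whereas *Fpr1* passed in all 17 alternatives. The count of 4 was 2 and 3 without L1CAM-positive number 25 and 31, and it was 6 with number 28 left out.

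The genes with the pattern most like each member were taken by the root mean square distance between log2 values centred on their mean over the 5 libraries, among 13863 other genes with a mean of at least 1 FPKM. The distance between *Saa3* and *Lcn2* was 0.49, smaller than that from either to any of these genes. Both had the largest differences between the fractions among genes with an mRNA (6.31 and 6.26), and the members were picked on that comparison. Their closeness is therefore a description only. Next to *Saa3* came the non-coding *Mir6385* (distance 1.18), *C3* (1.33) and the chemokine gene *Ccl2* (1.35), and next to *Lcn2* came the same genes, *Ccl2* at 1.33, *C3* at 1.35 and *Mir6385* at 1.35. *Ccl2*, whose product attracts monocytes, was at 6.67 and 11.1 FPKM in L1CAM-positive spheres, and 84.2, 109.7 and 301.6 FPKM in L1CAM-negative numbers 25, 31 and 28. *Hp* had closer neighbours, *Kng2* of a kininogen (distance 0.10), *Frzb* of a secreted WNT inhibitor (0.30) and *Inhbb* of an inhibin subunit (0.31). *Kng2* was at 0.410 and 0.852 FPKM against 10.6, 7.73 and 53.0 FPKM, so that the small distance holds on the offset log2 scale, while in L1CAM-positive number 25 its FPKM was less than that of *Hp* (1.05 FPKM). These distances describe 5 libraries that share the authors' normalization.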

How the data were processed

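Per the submitters' processing notes, STAR 2.6.1a (alignment, mm10), Cufflinks 2.2.146 (FPKM) and limma (quantile normalization) were used. The deposited values are in log2 units, 1 per RefSeq transcript for 32737 transcripts, and the lowest of them is 1, so that an offset of 2 was inferred and linear values are the power of 2 less this offset. The offset and the annotation release are not given in the sources used here. The name of the deposited sheet points to 31 samples, so that samples not analysed here may have entered the normalization. The depth is unknown. Between 20.7% and 22.0% of the transcripts per library were at the floor.

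The 202 transcripts with no symbol were left out, the transcript with the highest mean was kept per symbol, and the 4354 symbols at the floor in every library were left out, which leaves 19549 genes. All 8 members were above the floor in at least 1 library. The test between fractions was that of limma 3.58.1 in R 4.3.3 (lmFit, then eBayes with a trend), 2-sided, at a threshold of 0.05 after Benjamini-Hochberg adjustment over these genes. The paper names no test for the RNA sequencing. The main fit was also run on simulated data with independent normal errors and shifts planted only in genes well above the floor. This does not address the recovery of genes near the floor, nor libraries that are not independent. The members, lists and alternatives were chosen with earlier results of these data known, and no value of the members is given as a test. Named genes are the members, from each list the 3 with the largest change past the threshold in each direction and the 2 with the highest mean, and the 3 nearest in pattern to *Saa3*, *Lcn2* and *Hp*. Of these, 1 gene is counted but not reported here. The alternatives were pseudocounts of 0.1 and 5, no filter or 1 FPKM in at least 2 libraries, summed transcripts, 3 other normalizations, eBayes without a trend or robust, the number as a block, a term for days in culture, and each library left out in turn. Coordinates and promoter sequences are those of RefSeq on GRCm38.p6, the assembly of mm10, and transcripts for the comparison of near-identical copies those of GENCODE M21. Python 3.11.15 with pandas 2.3.3, Biopython 1.88 and matplotlib 3.10.9 was used for the rest.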

Additional observations from a re-analysis of the deposited data

How the results depend on the processing

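Leaving out 1 library gave between 727 and 3692 genes higher in L1CAM-negative spheres, where all libraries give 2961, and between 1404 and 3334 genes higher in L1CAM-positive spheres, where all give 3106. The lowest counts were found without L1CAM-positive number 25 (727 and 1404) and number 31 (921 and 1666), where the lone L1CAM-positive library is taken to vary like the others. Genes higher in L1CAM-negative spheres numbered 1727 when number 25, and 1930 when number 31, of the L1CAM-negative libraries was left out. The listed genes then numbered between 9 and 47 (40 with all libraries) and between 4 and 9 (7 with all libraries). In L1CAM-positive spheres, 4 listed genes were higher with no filter, 4 with days in culture as a term, and 4 without L1CAM-positive or L1CAM-negative number 31. The median log2 difference of the members, 0.35, became 2.19 with a pseudocount of 0.1, in place of the offset of 2, and 1.75 with *Saa1* and *Saa2*, and *Orm1* and *Orm2*, summed to 6 values. *Mt2* changed sign with the replicate block (-0.24) and without L1CAM-negative number 28, with -0.24 to 1.16 over the libraries left out. Of 25 named genes past the threshold, all 25 kept their direction in every alternative and 8 passed in all of them, 8 without L1CAM-positive number 25, 10 without L1CAM-positive number 31 and 25 with the replicate block.

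With the number as a replicate block, 3049 genes were higher in L1CAM-negative and 2771 in L1CAM-positive spheres, and 47 and 7 of the listed genes. Only numbers 25 and 31 are in both fractions, and their deviations from the means of the fractions correlated at 0.13 and -0.01 across genes. With 2 L1CAM-positive libraries these deviations mirror each other, and the numbers also differ in culture period. The correlations can therefore neither show nor exclude a pairing, and the number was not taken to pair the libraries in the main test. The unknown depth limits what can be said of *Saa1*, *Saa2*, *Saa4*, *Orm1* and *Orm2*, since a value near the floor has no counting error.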

Other observations

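Some genes of the response did not pass the comparison of the fractions and had most of their level in number 28, the library from P5 mice. They were chosen after their values were seen, and single libraries carry no test. *Il1rn*, which encodes the antagonist of the interleukin-1 receptor, was at log2 values of 1.14 and 1.35 in L1CAM-positive numbers 25 and 31 and at 1.93, 2.42 and 5.40 in L1CAM-negative numbers 25, 31 and 28. *Serpina3n*, a protease inhibitor of the acute phase, was at 3.82 and 5.39 against 4.83, 5.06 and 7.53, so that the fractions overlapped. *Mt2* was at 6.90 and 6.88 against 6.83, 6.47 and 9.28, where only number 28 lay above the L1CAM-positive libraries. *Scarb1*, which takes up cholesterol esters from HDL and binds serum amyloid A, was at 5.22 and 6.07 against 6.04, 5.94 and 8.48. *Lrg1*, an acute phase glycoprotein, was at 1.30 and 1.09 against 1.65, 1.17 and 3.02. Over all 114 listed genes tested, number 28 was the highest of the 5 libraries for 62 (54.4%), against 25% of all genes tested. As the lists were written with earlier results of these data known, nothing is read from this share.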
